A study of Mus musculus with 36 samples.

Results

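Translation in mouse embryonic fibroblasts was compared between cells let out of a short, severe hyperosmotic stress for 15 min and cells still in that stress. Fibroblasts are connective tissue cells, here grown from C57BL/6J embryos. The recovery group had 15 min at 700 mOsm, reached by adding sorbitol to the medium, followed by 15 min of recovery. The stress group had the same 15 min at 700 mOsm and no recovery. All groups were the same cells in the same serum-containing medium, and how the stress was taken away is not given in the sources used here. Each group had 2 ribosome footprint libraries (Ribo-seq) and 2 cytoplasmic RNA-seq libraries, so the comparison used 8 of the 36 libraries of the series, chosen by their titles. Libraries of unstressed cells, of cells 2 h into recovery, and of the release from a stress of 2 h at 700 mOsm served as points of comparison.

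Sorbitol draws water out of cells, which shrink and cut back protein synthesis. A ribosome starts at the start codon of an mRNA, moves along the coding sequence codon by codon and leaves at the stop codon. The stretch of mRNA that a ribosome covers is protected from RNase, and sequencing these footprints shows which coding sequences carry ribosomes. The footprint level of a transcript set against its RNA level is called translational efficiency. The comparison asks which transcripts carried more or fewer ribosomes once the stress was lifted, and whether their RNA levels moved with them.

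Transcripts carry Ensembl identifiers in the files, and 0 of these matched a gene name in the tables used here. Transcripts are therefore described by coding length, by non-coding length (transcript minus coding length) and by their levels, and only 4 are given by identifier. The gene lists could not be applied, and the labelled cell type was not checked against fibroblast markers. A level is the deposited RPKM (footprints) or FPKM (RNA), both per length, divided by a scaling factor of the library. A change is the difference of log2(scaled level + 1), recovery minus stress. The levels are relative to the typical transcript of the library, so they say nothing of the total amount of translation or RNA, and in bulk samples fewer cells and less RNA per cell cannot be told apart. The 2 footprint libraries of a condition differed by about as much as sampling noise gives (chi-square per degree of freedom 1.003 in recovery and 1.042 in stress, where noise alone gives 1, over transcripts reaching 40 reads in both libraries together). They were averaged and counted as 1 sample, without SD or p-value, and a transcript was called higher or lower from a 2-fold change. RNA libraries were kept as n = 2 a group. Nothing in the labels says that these were separate cultures. The p-values then reflect the spread between a pair of libraries a group, and that spread may be technical.

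Footprints covered many more transcripts after 15 min of release than in stress. In the recovery libraries 3608440 and 3939172 reads fell on 9981 and 10028 listed transcripts, against 822729 and 1068357 reads on 6193 and 6716 transcripts in the stress libraries. The depths differed too, so the numbers were recomputed for an equal depth of 732769 reads. At that depth 8318 and 8309 transcripts would be listed in the recovery libraries and 5995 and 6048 in the stress libraries, against 8311 and 8323 in unstressed cells. At equal depth the recovery libraries were thus close to the unstressed ones, and the stress libraries lay far below both.

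The reads were also less concentrated after release. The most heavily read transcripts that together held 50% of the footprint reads numbered 503 in each recovery library, against 207 and 209 in the stress libraries, and 505 in each unstressed library. The 10 most heavily read transcripts held 6.32% of the reads in both recovery libraries, against 9.53% and 9.50% in the stress libraries. Averaged over reads, the coding sequence under a footprint was 558 and 559 codons long in the recovery libraries, against 695 and 694 codons in the stress libraries and 544 codons in both unstressed ones.

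Many transcripts were listed after release and not in stress. Of the footprint transcripts, 2836 were listed in both recovery libraries and in neither stress library, and 2823 of these were listed in both unstressed libraries. The reverse held for 2 transcripts. A footprint transcript was usually listed from 5 reads on, so an unlisted transcript was not necessarily without ribosomes. Of the 6508 transcripts whose recovery level would have given at least 20 reads at the depth of the 2 stress libraries together, 765 (11.8%) were unlisted in both stress libraries. The share was 15.9% for coding sequences of 201 to 400 codons and 16.5% for those of 401 to 800 codons. It was 3.16% for 801 to 1600 codons, and 0 of 336 for coding sequences over 1600 codons. The choice by recovery level uses a group compared and favours transcripts that are higher in recovery. RNA of all 765 transcripts was listed in both stress libraries, so these RNAs were present in stressed cells while their footprints were too few for listing.

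Footprints of coding sequences over 1600 codons, which code for giant proteins, took a much smaller part of the reads after release. They took 4.58% and 4.59% of all footprint reads in the recovery libraries, against 13.05% in each stress library. Unstressed cells had 3.99% and 4.00%, so the recovery libraries were close to the unstressed ones and the stress libraries stood apart. The 95% Wilson intervals of these and the following footprint shares were at most 0.049 percentage points to either side in recovery and 0.11 in stress, for counting error only. Short coding sequences also took a smaller part after release. Those of 101 to 200 codons held 17.8% of the reads in both recovery libraries, against 26.2% in both stress libraries. Those of up to 100 codons held 3.25% and 3.26% in the recovery libraries, against 5.48% and 5.43% in the stress libraries. The space was taken by coding sequences of middle length. Those of 401 to 800 codons held 32.8% and 32.9% of the reads in the recovery libraries, against 19.9% and 20.1% in the stress libraries, and those of 201 to 400 codons 27.7% in both recovery libraries, against 22.6% and 22.7% in the stress libraries. Coding sequences of 801 to 1600 codons differed least, with 13.9% in both recovery libraries, against 12.7% and 12.6% in the stress libraries.

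**Figure D1:**
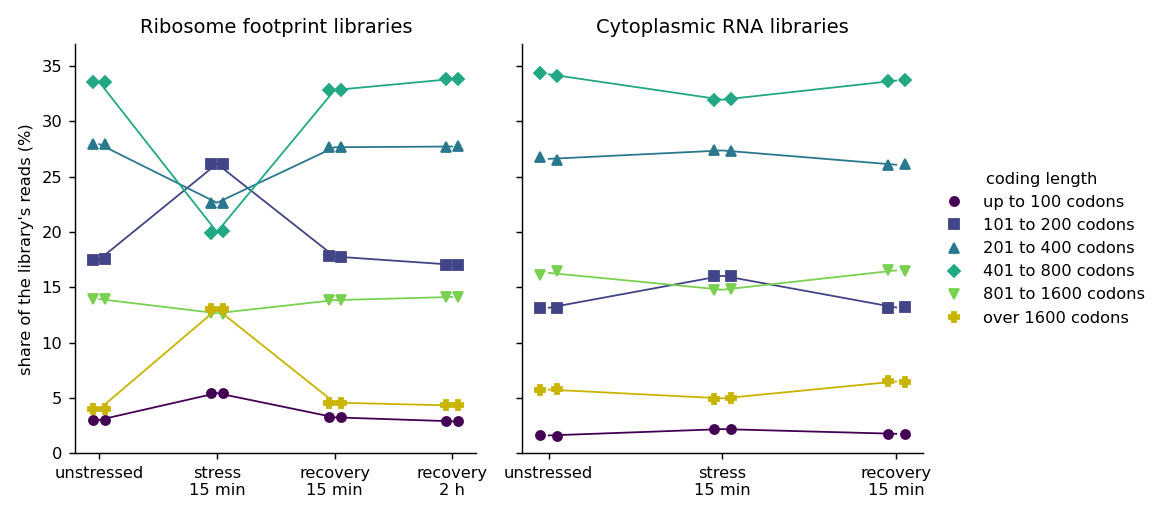
Share of each library's reads (%, y axis) that fell on coding sequences of 6 length classes, in unstressed cells, after 15 min of stress, and after 15 min and 2 h of recovery from it, for footprints (left) and RNA (right; the 2 h point is not drawn). Each point is 1 library and the lines join the means of the 2 libraries. In footprints the stress libraries stand apart in every class, with the smallest gap at 801 to 1600 codons, while RNA shares move by a few percentage points.

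RNA did not show the same shift in every class of coding length. RNA of coding sequences over 1600 codons took 6.53% and 6.47% of the RNA reads in the recovery libraries, against 4.95% and 5.00% in the stress libraries, which is the direction opposite to that of the footprints. RNA of 101 to 200 codons took 13.2% in both recovery libraries, against 16.1% and 16.0% in the stress libraries, in the same direction as the footprints.

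Transcript by transcript, 8849 passed the filter on low footprint levels (a mean scaled level of at least 2 over the 18 footprint libraries). Of these, 4271 were at least 2-fold higher in recovery than in stress (48.3%) and 1514 at least 2-fold lower (17.1%). On the values as deposited, which the scaling lowers by 0.59 on the log2 scale, 5077 were higher and 717 lower. The median change was 0.89, with quartiles of -0.56 and 2.58. A transcript with too few stress reads for listing counted as having none, which can overstate its rise. Between the libraries of a group, 60 of the 8849 transcripts were at least 2-fold apart in recovery and 1125 in stress, so a 2-fold call on a low transcript can lie within the counting error of the stress libraries. Because the stress libraries were shallow, the transcripts were also restricted to those whose level in unstressed cells would give at least 100 reads at the stress depth, called well-read here. This choice used neither group compared. Of these 2543 transcripts, 881 were higher (34.6%) and 628 lower (24.7%), with a median change of 0.19. The share of higher calls was thus smaller among well-read transcripts. This choice was made after seeing the data. The planned choice expected the 100 reads from the mean level of the 4 libraries compared. It gave 514 higher and 922 lower of 2493 transcripts, with a median change of -0.52. The more common direction thus depended on which transcripts were counted.

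The footprint change differed with coding length and turned direction along it. Among coding sequences over 1600 codons, 530 were in the lists and 371 passed the filter. Of these, 2 were higher and 316 lower, with a median change of -1.74 and quartiles of -2.24 and -1.32. Among well-read ones, 0 of 131 were higher and 124 lower, with a median change of -2.12. Leaving out any of the 4 libraries moved the class median to between -1.77 and -1.73.

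Coding sequences of 401 to 800 codons went the other way, with 1965 of 3164 higher and 222 lower and a median change of 1.69. Among well-read ones 426 of 842 were higher and 81 lower, with a median of 1.02. Coding sequences of 201 to 400 codons had median changes of 1.54 over all 2645 that passed the filter and of 0.62 over the 669 well-read ones. By the planned choice of 100 reads the medians were -0.14 for 201 to 400 codons and 0.40 for 401 to 800 codons. Those of up to 100 codons had medians of -0.54 over 182 and of -1.08 over 72 well-read ones, of which 8 were higher and 37 lower. For 101 to 200 codons the medians were 0.14 over 1100 and -0.72 over 394 well-read ones, so the direction of this class depended on which transcripts were counted. The class of 801 to 1600 codons had a median of 0.00 over 1387 transcripts and of -0.19 over 435 well-read ones. On the values as deposited the medians were 0.00 for up to 100 codons, 0.74 for 101 to 200, 0.53 for 801 to 1600 codons and -1.20 for the class over 1600 codons, which kept its direction. The median of up to 100 codons was also 0.00 without the filter on low levels.

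In bins of 100 codons, that middle class was a passage between opposite changes. The median change was 1.84 at 401 to 500 codons and 1.85 at 501 to 600 codons. From there it was lower in each longer bin up to 1801 to 1900 codons, at 0.97 for 801 to 900 codons, 0.09 for 1001 to 1100 codons, -0.55 for 1201 to 1300 codons and -1.21 for 1501 to 1600 codons. It was -1.93 over 152 coding sequences of 2001 to 3000 codons and -2.44 over 46 of 3001 to 5000 codons. The well-read transcripts followed the same course, with 0.07 at 1001 to 1100 codons and -2.28 at 2001 to 3000 codons. At 7 coding sequences over 5000 codons, the median of -1.89 rests on few transcripts.

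**Figure D2:**
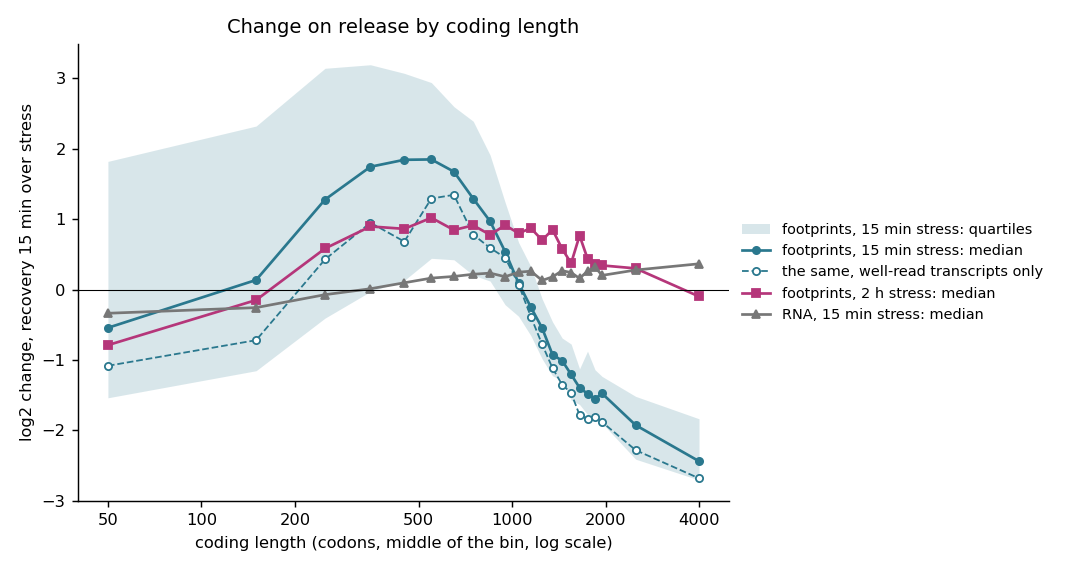
Median log2 change, recovery 15 min over stress (y axis), against coding length in codons (x axis, log scale, bins of 100 codons up to 2000, then to 3000 and 5000). Filled circles are footprints on release from 15 min of stress with their quartiles shaded, open circles the well-read transcripts, squares footprints on release from 2 h of stress and triangles RNA on release from 15 min of stress. Footprints on release from the short stress go from a median of 1.85 at 501 to 600 codons to -2.44 at 3001 to 5000 codons, and neither the line of the long stress nor that of RNA goes down in that way.

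The release from the longer stress, 15 min of recovery after 2 h at 700 mOsm, did not have a lower footprint median in the class over 1600 codons. That comparison shares no library with the first. At least 2-fold higher were 3746 of 8849 (42.3%) and lower 1212 (13.7%). Coding sequences over 1600 codons had a median change of 0.33, with 74 of 371 higher and 17 lower, and a median of 0.60 among well-read ones. The longest of them had medians of -0.10 over 46 coding sequences of 3001 to 5000 codons and -0.80 over 7 of over 5000 codons. They took 3.98% and 4.00% of the footprint reads after 15 min of recovery, against 2.36% and 2.35% after 2 h of stress, so the share of these sequences was lower on release from the short stress and higher on release from the long one. Coding sequences of up to 100 codons had median changes of -0.54 on release from the short stress and -0.79 on release from the long one, and of -1.08 and -1.35 among well-read ones. Those of 401 to 800 codons had medians of 1.69 after the short stress and 0.91 after the long one, and of 1.02 and 0.61 among well-read ones. These footprint values have 1 sample a group, and the difference between the releases was not tested. For RNA it was tested within the limma fit. The RNA change was greater on release from the short stress for 2160 of 9275 transcripts (23.3%) and smaller for 2580 (27.8%), with the recovery from the long stress taken as its titles give it. The names under which those RNA values were deposited point to another exposure. The 2 RNA libraries of 2 h at 700 mOsm also differed in depth, with 23257380 and 6851958 reads.

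Set against unstressed cells, the footprint medians of the 6 length classes lay close to 0 after 15 min of recovery. Coding sequences over 1600 codons had a median log2 level over unstressed cells of 1.68 after 15 min of stress, -0.08 after 15 min of recovery and -0.02 after 2 h of recovery. For 401 to 800 codons these medians were -1.72, -0.04 and -0.03, and for up to 100 codons 0.65, 0.04 and -0.04. All class medians in recovery lay between -0.08 and 0.04. Of the 371 longest coding sequences, 319 were at least 2-fold above unstressed cells in stress, and 12 in recovery. Of the 3164 with 401 to 800 codons, 1974 were at least 2-fold below unstressed cells in stress, and 11 in recovery. The stress and recovery values share the unstressed libraries.

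**Figure D3:**
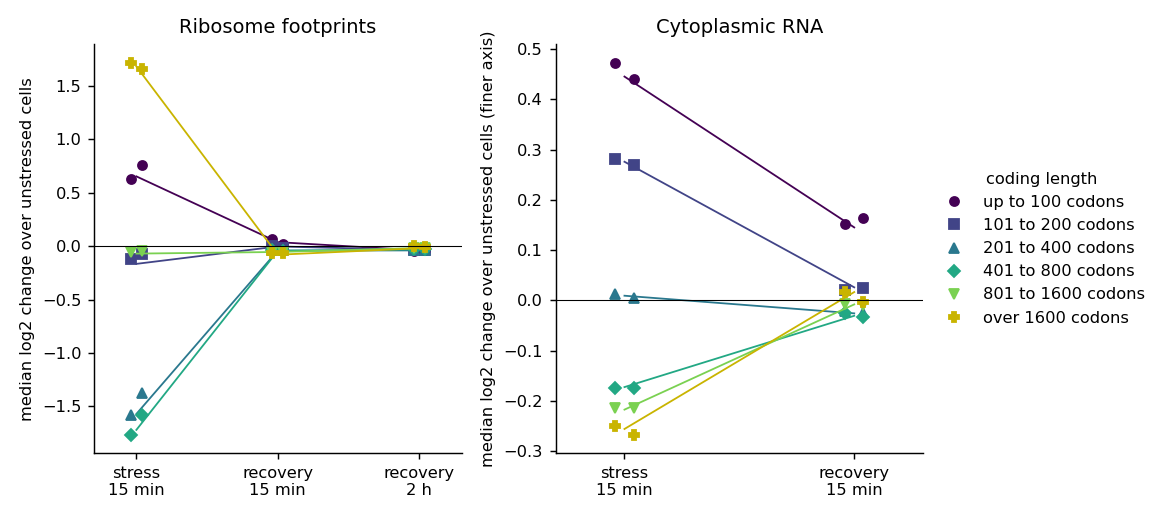
Median log2 level over unstressed cells (y axis; the axes differ between panels) of transcripts in 6 classes of coding length, after 15 min of stress and after 15 min and 2 h of recovery, for footprints (left) and RNA (right; the 2 h point is not drawn). Each point is 1 library, and lines join the medians for the 2 libraries averaged. The footprint classes span -1.72 to 1.68 in stress and -0.08 to 0.04 after 15 min of recovery, and the RNA classes -0.26 to 0.45 in stress and -0.03 to 0.15 in recovery. Of all RNA pairs the unstressed libraries, the baseline here, differed most by chi-square per degree of freedom (47.079).

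RNA changes were smaller than footprint changes. Of 9275 transcripts past the filter on RNA levels, 3789 rose (40.9%) and 2532 fell (27.3%) by limma with Benjamini-Hochberg adjustment at 0.05. The median log2 change was 0.40 among those that rose and -0.31 among those that fell. Only 84 of the first and 17 of the second changed at least 2-fold, and 0 changed 4-fold. Among the transcripts past the filter of each assay the RNA change had an SD of 0.37 and the footprint change an SD of 2.00, on the log2 scale. Between the 2 stress libraries alone the log2 difference had an SD of 0.12 for RNA and 1.12 for footprints. The footprint SD thus also holds the counting error of the shallow stress libraries. With a stricter filter (a mean scaled level of at least 10), 2104 rose and 2191 fell, so which direction was the more common depended on how many low RNAs were counted. Transcripts whose RNA rose had a median coding length of 587 codons and 1904 nt of non-coding sequence. Those whose RNA fell had 292 codons and 568 nt.

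The RNA change was ordered by non-coding sequence, that is, by the untranslated regions at both ends of the mRNA. With more than 2000 nt of it, 1750 of 2456 RNAs rose (71.3%) and 211 fell (8.59%), with a median log2 change of 0.36. With at most 500 nt, 294 of 2001 rose (14.7%) and 1088 fell (54.4%), with a median of -0.21. The classes between had median changes of -0.03 (501 to 1000 nt) and 0.12 (1001 to 2000 nt). Coding length gave an order of its own. Of coding sequences over 1600 codons, 258 of 385 RNAs rose and 35 fell, and of those with up to 100 codons, 16 of 180 rose and 129 fell.

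The order by non-coding length also held within each class of coding length. Among coding sequences of 401 to 800 codons, 132 of 566 RNAs rose where the non-coding sequence had at most 500 nt and 746 of 961 where it had over 2000 nt, with median changes of -0.05 and 0.40. Among those of 101 to 200 codons, 7 of 393 rose with up to 500 nt and 96 of 209 with over 2000 nt. The smallest transcripts, of up to 100 codons and up to 500 nt, had 1 riser and 64 that fell among 74, with a median of -0.46. At each non-coding length the RNA median was higher in each longer coding class, with 1 exception. At over 2000 nt it was 0.43 for coding sequences over 1600 codons and 0.45 for those of 801 to 1600 codons.

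Footprints of middle-length coding sequences followed non-coding length as well, while those of the longest did not do so among well-read transcripts. Among well-read coding sequences of 401 to 800 codons, the median footprint change was 0.53 at up to 500 nt of it and 1.57 at over 2000 nt. Over all transcripts past the filter it was 0.91 and 2.21. For 201 to 400 codons it was -0.20 and 1.59 among well-read transcripts, and 0.36 and 2.44 over all past the filter. For coding sequences over 1600 codons it was -2.13 and -2.15 among well-read transcripts. Over all transcripts past the filter it was higher with more non-coding sequence, at -1.86, -1.85, -1.79 and -1.62 from the shortest to the longest class. The 29 well-read transcripts over 1600 codons and 2000 nt were all at least 2-fold lower, as were 94 of the 115 past the footprint filter. Of the 109 RNAs tested in that class 88 rose, and how many of these are among the 29 was not counted.

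**Figure D4:**
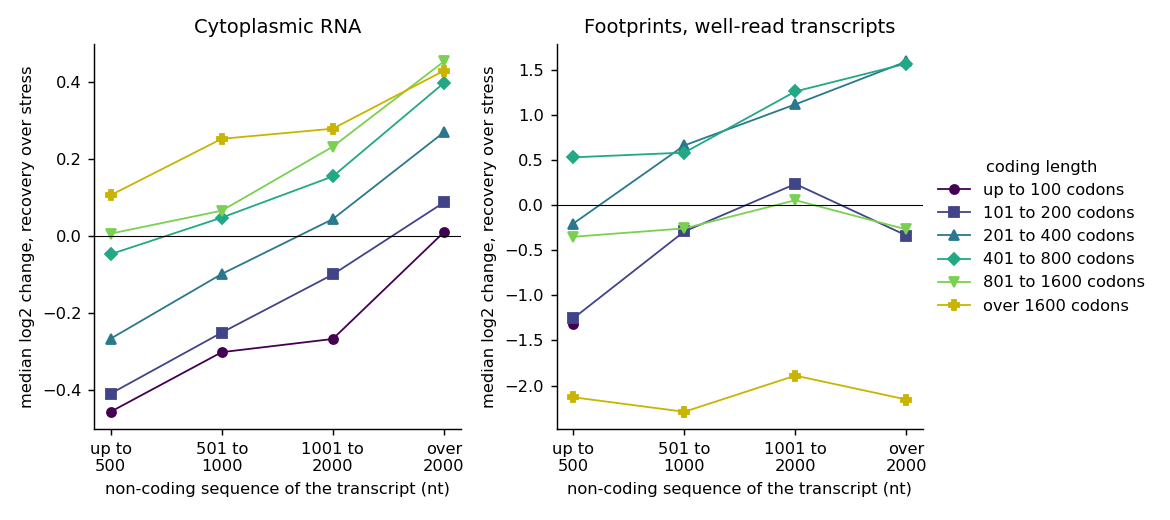
Median log2 change, recovery 15 min over stress (y axes, which differ), against the non-coding sequence of the transcript in nt (x axis, 4 classes), for RNA of transcripts past the filter (left) and for footprints of well-read transcripts (right). Lines are classes of coding length, and classes with fewer than 20 transcripts are not drawn. Within each class of coding length the RNA median is higher at over 2000 nt than at up to 500 nt, while the footprint line over 1600 codons stays between -2.29 and -1.89.

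Translational efficiency moved with coding length as the footprints did. Of 8446 transcripts past both filters, 3940 were at least 2-fold higher in recovery (46.6%) and 1311 lower (15.5%), and on the values as deposited 4655 were higher and 605 lower. Of the coding sequences over 1600 codons, 1 of 346 was higher and 335 lower, with a median of -2.04. The median change of their RNA was 0.28, opposite to that of their footprints. The class of 201 to 400 codons had a median of 1.50, and of 0.77 among well-read transcripts. The class of 401 to 800 codons had a median of 1.48, and of 1.00 among well-read ones. Of all well-read transcripts, 882 were higher and 519 lower. With at least 100 expected reads by the mean level of the 4 libraries compared, 517 were higher and 781 lower, so the more common direction depended on which transcripts were counted.

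Footprint and RNA changes still went together more often than apart. Of 3375 transcripts whose RNA rose and whose footprints passed the filter, 2192 had footprints at least 2-fold higher (64.9%) and 292 lower (8.65%). Of 2415 whose RNA fell, 523 had higher footprints (21.7%) and 835 lower (34.6%). Where RNA neither rose nor fell, 1336 of 2656 had higher footprints (50.3%) and 323 lower (12.2%), so higher footprints were common there too. Across the 8446 transcripts, which share libraries and depth and are not independent replicates, Spearman's rho between both changes was 0.41. Among well-read transcripts within a class of coding length it was 0.64 for the 669 of 201 to 400 codons and 0.19 for the 131 over 1600 codons.

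The match between footprint level and RNA level across transcripts was as close in recovery as in unstressed cells. Over the 8446 transcripts Spearman's rho of the 2 levels was 0.82 in unstressed cells, 0.65 in stress and 0.82 in recovery. The SD of the log2 ratio of footprint to RNA level was 1.07 in unstressed cells, 2.19 in stress and 1.06 in recovery. Among the 2542 well-read transcripts with RNA values the SD was 1.03, 1.94 and 1.01 in the same order, so the wider spread in stress held there too. These transcripts are well-read by their unstressed level and can still have few reads in stress. The 2 unstressed RNA libraries also differed from each other more than any other RNA pair (chi-square per degree of freedom 47.079).

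RNA changes also differed with translational efficiency and RNA level in unstressed cells. The 8446 transcripts were split into 5 equal groups by translational efficiency in unstressed cells, which uses neither group compared but rests on the uneven unstressed RNA libraries. RNA rose for 1040 of 1690 in the least efficient group and fell for 221, and in the most efficient group it rose for 372 of 1689 and fell for 816. The median footprint change was 1.18 in the least efficient group, 1.34 in the next, and 0.11 in the most efficient one. Among well-read transcripts these medians were -0.65, 0.44 and 0.01, and in the least efficient group 54 of 214 were higher and 95 lower, so the direction of that group depended on which transcripts were counted. The least efficient group had a median coding length of 684 codons and the most efficient one of 231 codons, so this order and that by coding length overlap. Split into 5 by RNA level in unstressed cells, RNA rose for 656 of 1690 and fell for 199 in the lowest group, and rose for 407 of 1689 and fell for 995 in the highest.

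The transcript with the largest RNA rise, ENSMUST00000092956, has 5657 codons in 18099 nt. Its RNA had scaled FPKM values of 107 and 111 in the recovery libraries, against 27.0 and 26.2 in the stress libraries, a log2 change of 1.99 (SE 0.03, limma adjusted p = 5.85e-16). Unstressed cells had 69.3 and 64.8, between those of both groups. Its footprints were at a scaled RPKM of 54.9 and 56.4 in the recovery libraries, against 37.6 and 39.2 in the stress libraries, from 7851 and 912 reads. The fold was 1.45, with an exact 95% interval for counting error of 1.35 to 1.55, so this transcript differed from most giant coding sequences, whose footprints were lower in recovery. Unstressed cells had footprint levels of 17.6 and 16.1, below both.

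The highest footprint change among transcripts listed in all 4 libraries was that of ENSMUST00000005606, with 352 codons in 2293 nt. Its footprint levels were 191 and 184 in the recovery libraries, against 11.0 and 5.99 in the stress libraries, and 224 and 219 in unstressed cells. The reads behind the recovery and stress levels were 1645 and 12, which gives a 23.0-fold difference with an exact 95% interval of 13.1 to 44.7. Its RNA had scaled FPKM values of 115 and 117 in the recovery libraries, against 102 in both stress libraries (log2 change 0.18, SE 0.04, limma adjusted p = 0.000266). The RNA level differed by far less. Footprint groups without overlap were a condition for naming this transcript. The interval of the fold does not allow for its choice as the highest change.

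The largest RNA fall was that of ENSMUST00000090776, with 131 codons and 70 nt of non-coding sequence. Its RNA had scaled FPKM values of 27.7 and 27.2 in the recovery libraries, against 76.0 and 68.2 in the stress libraries, and 28.5 and 45.9 in unstressed cells (log2 change -1.36, SE 0.15, limma adjusted p = 6.85e-07). Its footprint levels were 80.2 and 68.0 in the recovery libraries, against 404 and 380 in the stress libraries, and 134 and 142 in unstressed cells. RNA and footprints of this short transcript were thus both lower after release. RNA groups without overlap were a condition for naming it.

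The lowest footprint change was that of ENSMUST00000087085, with 1648 codons in 8805 nt. Its footprint levels were 1.33 and 1.40 in the recovery libraries, against 48.5 and 48.6 in the stress libraries, from 56 and 335 reads, and 0.413 and 0.397 in unstressed cells. Its RNA stayed under the filter, at scaled FPKM values of 0.0764 and 0.0795 in the recovery libraries, against 0.0374 and 0.0648 in the stress libraries, where 9 and 19 RNA reads were counted. Footprints of the stress libraries were thus listed on a transcript with hardly any RNA reads, and how reads shared between transcripts were counted is not given in the sources used here.

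**Figure D5:**
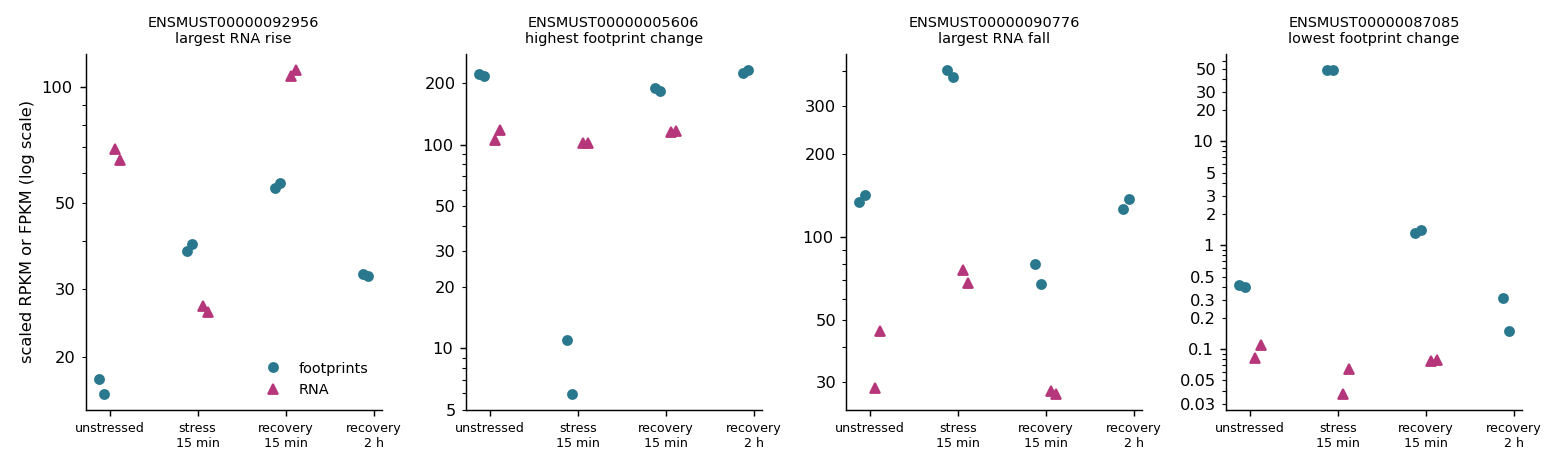
Scaled level (y axis, log scale; RPKM for footprints as circles, FPKM for RNA as triangles) of the 4 transcripts with the highest and lowest change in RNA and in footprints, in unstressed cells, after 15 min of stress and after 15 min and 2 h of recovery (x axis; RNA is not drawn at 2 h). Each point is 1 library. The footprint level of ENSMUST00000005606 is 191 and 184 in recovery against 11.0 and 5.99 in stress, and that of ENSMUST00000087085 is 1.33 and 1.40 against 48.5 and 48.6.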

How the data were processed

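The series holds 36 libraries, 18 of ribosome footprints and 18 of cytoplasmic RNA, with 9 conditions and 2 libraries per condition. The authors deposited 1 list of RPKM values for every footprint library and 1 list of FPKM values for every RNA library, per the labels and file names. The submitters' processing notes name cutadapt, Bowtie, STAR and GRCm38, a mouse genome build. What each tool was used for, the annotation and the counting rules are not given in the sources at hand.

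Library totals, lengths and whole reads were solved from the steps of the deposited values, and 100% of the values came out whole within a relative 1e-09, largely by construction. The solving and the RNA test were tested on simulated data. Of the footprint lengths, 99.2% could be divided by 3, and they are called coding length. Reads per library ran from 732769 to 9102097 for footprints and from 6851958 to 55262396 for RNA. The RNA libraries compared held 29182693 and 33597851 reads in recovery, and 27907955 and 33804995 in stress. Read numbers give counting error alone, because reads with no molecular identifier may be copies of the same molecule.

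Scaling used the median ratio of a library to the geometric mean of each transcript, over transcripts listed in all 18 libraries of its assay whose mean reached 10 (4619 for footprints, 5705 for RNA). Unlisted transcripts were set to 0. Where a transcript had reads too few for listing, its level is thus too low. In the shallower stress libraries this can overstate footprint rises on release. The 2836 footprint transcripts listed in both recovery libraries and in neither stress library had a median scaled recovery level of 5.75. A pseudocount of 1 acts the other way and understates changes of low transcripts. RNA was tested two-sided with limma 3.58.1 in R 4.3.3, fitting 9 group means to all 18 RNA libraries with precision weights for each group and a mean-variance trend. Members, lists and classes were chosen with earlier results of these data known. The highest and lowest change of each assay are named, with both recovery libraries beyond both stress libraries and, for footprints, at least 100 reads over the 4 libraries. The wider naming rule and the gene lists needed gene names and were not applied. Alternatives changed the pseudocount, filter, scaling, weights, libraries and test.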

Additional observations from a re-analysis of the deposited data

Results flagged for a closer look

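The RNA change on release from 15 min of stress differed from that on release from 2 h of stress for 4740 of 9275 transcripts, by a limma test of the difference itself over all 18 RNA libraries. The change was greater after the short stress for 2160 (23.3%) and smaller for 2580 (27.8%). Among coding sequences over 1600 codons, 91 were greater and 160 smaller, with a median difference of -0.18 on the log2 scale, and among those of 401 to 800 codons 940 were greater and 763 smaller, with a median of 0.06. The groups are taken as their titles give them. The names under which the RNA values of the recovery after the long stress were deposited point to another exposure than the titles, and which exposure that group had cannot be told from the sources at hand. The 4 RNA libraries of the short stress and its 15 min of recovery have no such conflict. The 2 RNA libraries of 2 h at 700 mOsm, also part of this test, were uneven. They held 23257380 and 6851958 reads, the latter the fewest of any RNA library. Their chi-square per degree of freedom was 22.971. It was 4.178 in the short stress, and 3.47 and 3.444 after 15 min of recovery from the short and the long stress. The unstressed RNA libraries, which are not in this contrast, were further apart still, at 47.079. They are the baseline wherever RNA is set against unstressed cells.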

How the results depend on the processing

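The footprint call of most interest, the lower level of coding sequences over 1600 codons in recovery, kept its direction under every alternative run. Its median change of -1.74 became -1.87 with a pseudocount of 0.25, -1.50 without a filter, -1.98 with a mean level of at least 10, -1.20 on the values as deposited, -2.03 and -2.12 for transcripts with at least 100 expected reads (by the mean of the 4 libraries compared, and by unstressed level), and -1.77 to -1.73 when 1 library was left out. The median of up to 100 codons was 0.00 without a filter and on the values as deposited, -0.73 with a mean level of at least 10, and -1.35 and -1.08 with at least 100 expected reads chosen in the same 2 ways.

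A mean level of at least 10 left 2104 RNAs that rose, and gave 2448 higher footprints, 2007 transcripts of higher translational efficiency and 730 of lower. On the values as deposited 717 footprints and 605 efficiencies were lower. With at least 100 expected reads by the 4 libraries compared, 514 footprints were higher and 922 lower, and 517 efficiencies were higher and 781 lower. By unstressed level, chosen after seeing the data, these counts were 881, 628, 882 and 519. The choice by the 4 libraries uses levels of the groups compared. It put the medians of 101 to 200, 201 to 400 and 801 to 1600 codons below 0, at -1.10, -0.14 and -0.53, and also those of all 4 classes of non-coding sequence, at -0.94, -0.46, -0.13 and -0.32 from the shortest to the longest class. These sets hold fewer transcripts by construction, and other causes of the differences were not tested.

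Leaving out 1 library gave 2820 to 3027 RNAs that rose and 1698 to 1862 that fell, 4014 to 4271 footprints higher and 1505 to 1563 lower. The numbers of the libraries were not used as pairs in the main fit. Same-numbered libraries of the recovery and stress groups did not deviate together (correlation -0.03 for RNA and -0.02 for footprints). For footprints, whose pairs differ by about sampling noise, this check cannot tell whether libraries were paired. With a replicate block 3693 RNAs rose and 2467 fell. A limma fit to footprints called 4495 higher and 2086 lower with the block, and 4480 and 2059 without it. That fit counts each footprint library as a replicate, although the pairs differ by about sampling noise. Its calls rest on adjusted p-values and not on a 2-fold change, so they are not on the same footing as the footprint counts above. Limits are the depth of the stress footprint libraries, where transcripts under about 5 reads are unlisted, the lack of gene names, and replicates that may be technical.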
